A study of Caenorhabditis elegans with 7 samples.

Results

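The genes described here encode the guanylyl cyclases and heterotrimeric G proteins of chemosensory signalling in C. elegans, together with a few channels and enzymes that act with them. They were chosen by gene symbol: every gene with a symbol starting with gcy-, gpa-, gpb-, gpc- or tax-, plus odr-1, odr-3, daf-11, osm-9, ocr-2, egl-4, egl-30, goa-1 and gsa-1, as far as a probe set was annotated to that gene alone. This gave 66 of the 17118 genes with such a probe set, and 81 of the 22548 probe sets tested. The rule itself uses symbols and no difference between the groups, and only the choice among probe sets of 1 gene uses their mean. By role they were 27 receptor-type and 7 soluble guanylyl cyclases, 22 G protein alpha subunits (4 conserved across animals and 18 others), 4 beta and gamma subunits, 4 channel subunits, 1 kinase and 1 phosphatase.

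The samples were whole young adults of N2, the wild-type strain, all grown from the egg for 3 days at 20ºC. The 13L worms (3 arrays, titled SL4, SL8 and SL12) were grown on NGM agar that held 13L, a synthetic peptide with the sequence of a cocoa seed protein fragment, at 1 µg/mL. The NGM worms (4 arrays, titled SL1, SL5, SL9 and SL69) had the same agar without peptide. Each sample was hybridized to 1 Affymetrix C. elegans Genome Array, and the question was which transcripts differed between these diets. The study calls its samples biological replicates, while the labels do not say which came from separate cultures.

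In the sensory neurons of the worm, an odour, salt, gas or temperature acts in one of 2 ways. A chemoreceptor may activate a G protein, whose alpha subunit separates from its beta and gamma subunits, or a guanylyl cyclase may itself be the receptor. In many of these neurons the result is a change in cGMP, which opens the TAX-2 and TAX-4 channel, while others use the TRPV channel of OSM-9 and OCR-2. Most receptor-type cyclases and most gpa genes are known from a few neurons per worm, whereas goa-1, gsa-1, egl-30, gpb-1 and gpc-2 act in many tissues, and goa-1, gpa-16 and gpb-1 also act in the early embryo. RNA of whole worms therefore mixes a few neurons with the germline, intestine and muscle, and fewer cells of a type cannot be told apart from less RNA per cell.

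Array medians lay between 1.01 and 1.06 on the log2 scale and arrays correlated at 0.982 to 0.995 over probe sets, where similar medians follow from the normalization. Arrays of both groups stood apart in sperm genes. The major sperm protein gene msp-78 had 6.55, 9.03 and 9.59 in 13L, against 4.33, 9.48, 9.29 and 7.98 on NGM, so that SL4 in 13L and SL1 on NGM were the lowest of their groups. The array also holds 5 control probe sets for yeast genes that worms do not have, with means of 0.11, 0.37, 0.42, 0.50 and 0.74. A gene could lie above most of them and still below the highest, 0.74, which served as the mark of background. Over all genes, 7044 (41.1%) had a mean no higher than that. The markers of the sampled stage were present, with all 16 oocyte markers and all 11 measured intestine markers above the yeast controls. Where a gene had several probe sets, its log2 values are those of the brightest one, by the mean of the 7 arrays. Levels of different probe sets are not comparable with each other, since probes differ in how well they bind.

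Most of the 66 genes gave little or no signal over the yeast mark in whole worms. The mean of 49 of them (74.2%) was no higher than the brightest yeast control, with single values between -0.04 and 0.99. A mean above it was found for 17 genes, and 12 of these lay above the brightest yeast value of the same array on every array. These 12 were the cyclases gcy-28, gcy-11 and gcy-18, the alpha subunits goa-1, gsa-1, egl-30, gpa-16 and gpa-1, the subunits gpb-1, gpb-2 and gpc-2, and the kinase egl-4. The probe sets that stand for gcy-11, gcy-18, egl-30 and gpb-2 have the suffix of those that can match several transcripts. The other 5 genes with a mean above it were gcy-23, gpa-12, gpa-17, gpa-7 and tax-6. Of the chemoreceptor genes, many of which are known from the same neurons, 59 of 1274 (4.63%) had a mean above the yeast controls, against 25.8% of the 66 genes and 58.9% of all genes.

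**Figure D1:**
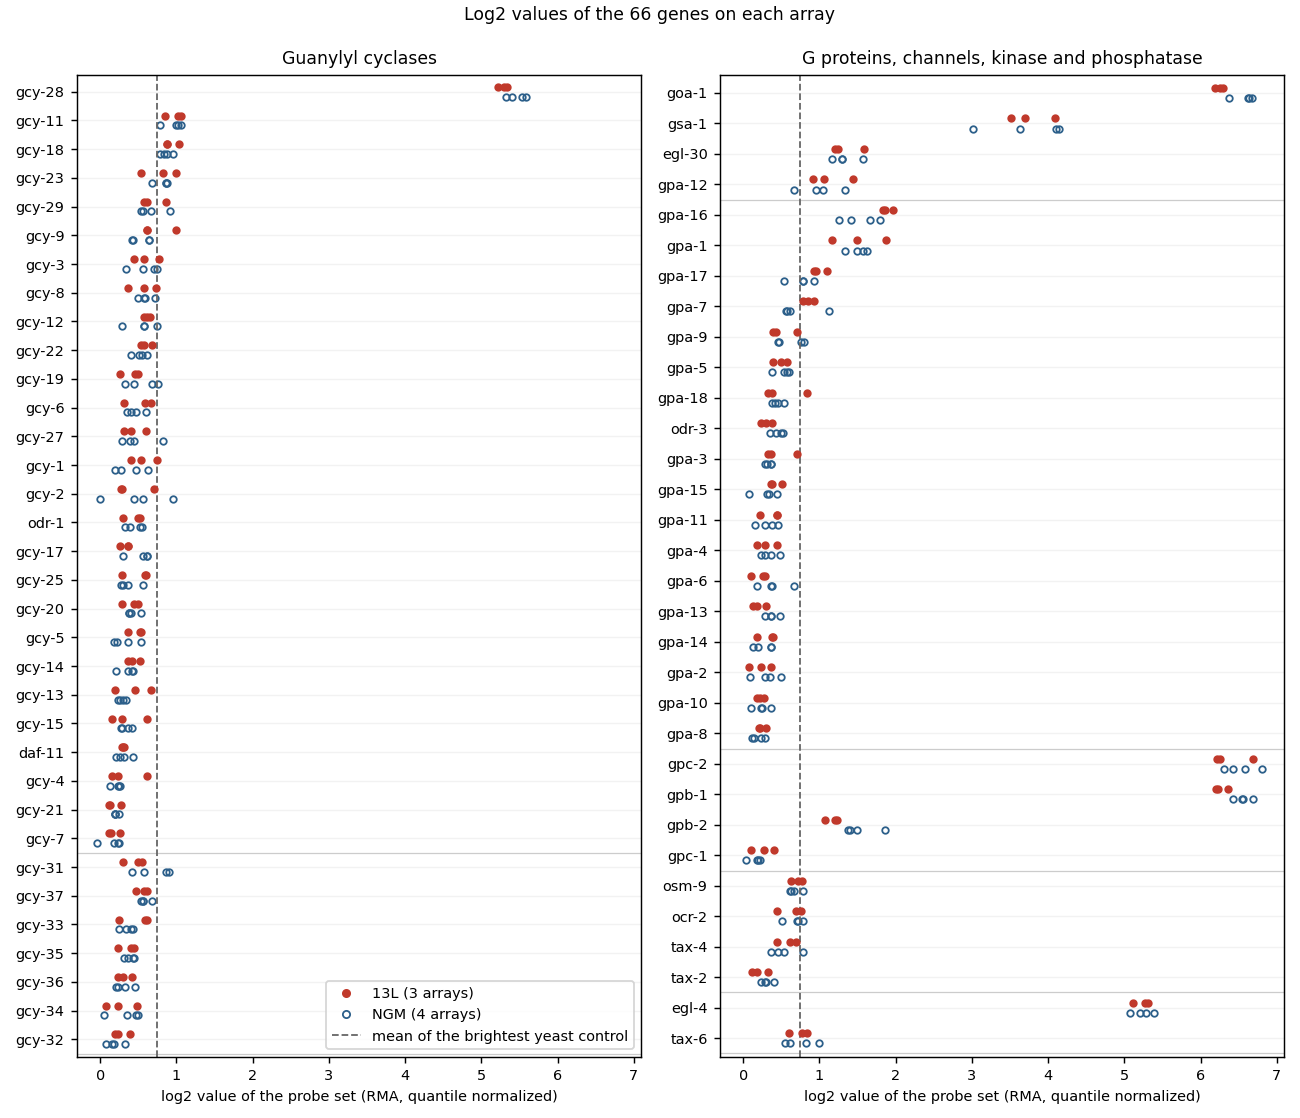
Log2 value of each of the 66 genes (rows, ordered within each role by mean) on the 3 arrays of 13L (filled red, upper points of a row) and the 4 of NGM (open blue, lower points), with the mean of the brightest yeast control, 0.74, as a dashed line. For 49 genes the mean is not to the right of the line, and the genes far to its right are gcy-28, goa-1, gsa-1, gpb-1, gpc-2 and egl-4.

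None of the 66 genes passed the adjusted test between 13L and NGM (limma, Benjamini-Hochberg over all probe sets, lowest adjusted p = 0.944), and across all genes the share that passed was 0%. The members that stood out most were subunits of G proteins. Lower in 13L were goa-1, gpb-1 and gpb-2, the only members with a negative difference at an unadjusted p under 0.05, and higher was gpa-16. That is 3 of 66 lower (4.55%) and 1 of 66 higher (1.52%), where 2.73% of all genes were lower and 1.99% higher at the same threshold. The groups did not overlap for the same 3 genes on the lower side, where 2.85% of all genes had no overlap, and for gpa-16 and gpa-17 on the higher side, where the share of all genes was 2.94%. These members were all among the 17 with a mean above the yeast controls. Of these 17 genes, 17.6% passed the unadjusted threshold on the lower side and 5.88% on the higher side. Of the 10074 genes with such a mean, 4.06% passed it on the lower side and 2.24% on the higher side. With so few genes, the members' shares were not read as differing from those of all genes. The counts also rested on single arrays. Without SL4 only goa-1 was lower, and gpa-16 no longer had an unadjusted p under 0.05 without SL8, SL9 or SL69. Without SL8 gcy-13 and gcy-33 were higher in its place, without SL9 it was gpa-17, and without SL1 gpa-7 was added. On the lower side gcy-17 was added without SL1, and gcy-31 without SL9. Without both SL1 and SL4, goa-1 (-0.33) and gcy-17 were lower, gpa-16 (0.46), gcy-1 and gpa-7 were higher, and gpb-1 and gpb-2 differed by -0.21 and -0.33 with unadjusted p-values of 0.102 and 0.0979. A positive difference was found for 36 members (54.5%) and for 50.3% of all genes, and the median difference was 0.01 over the members and 0.00 over all genes.

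**Figure D2:**
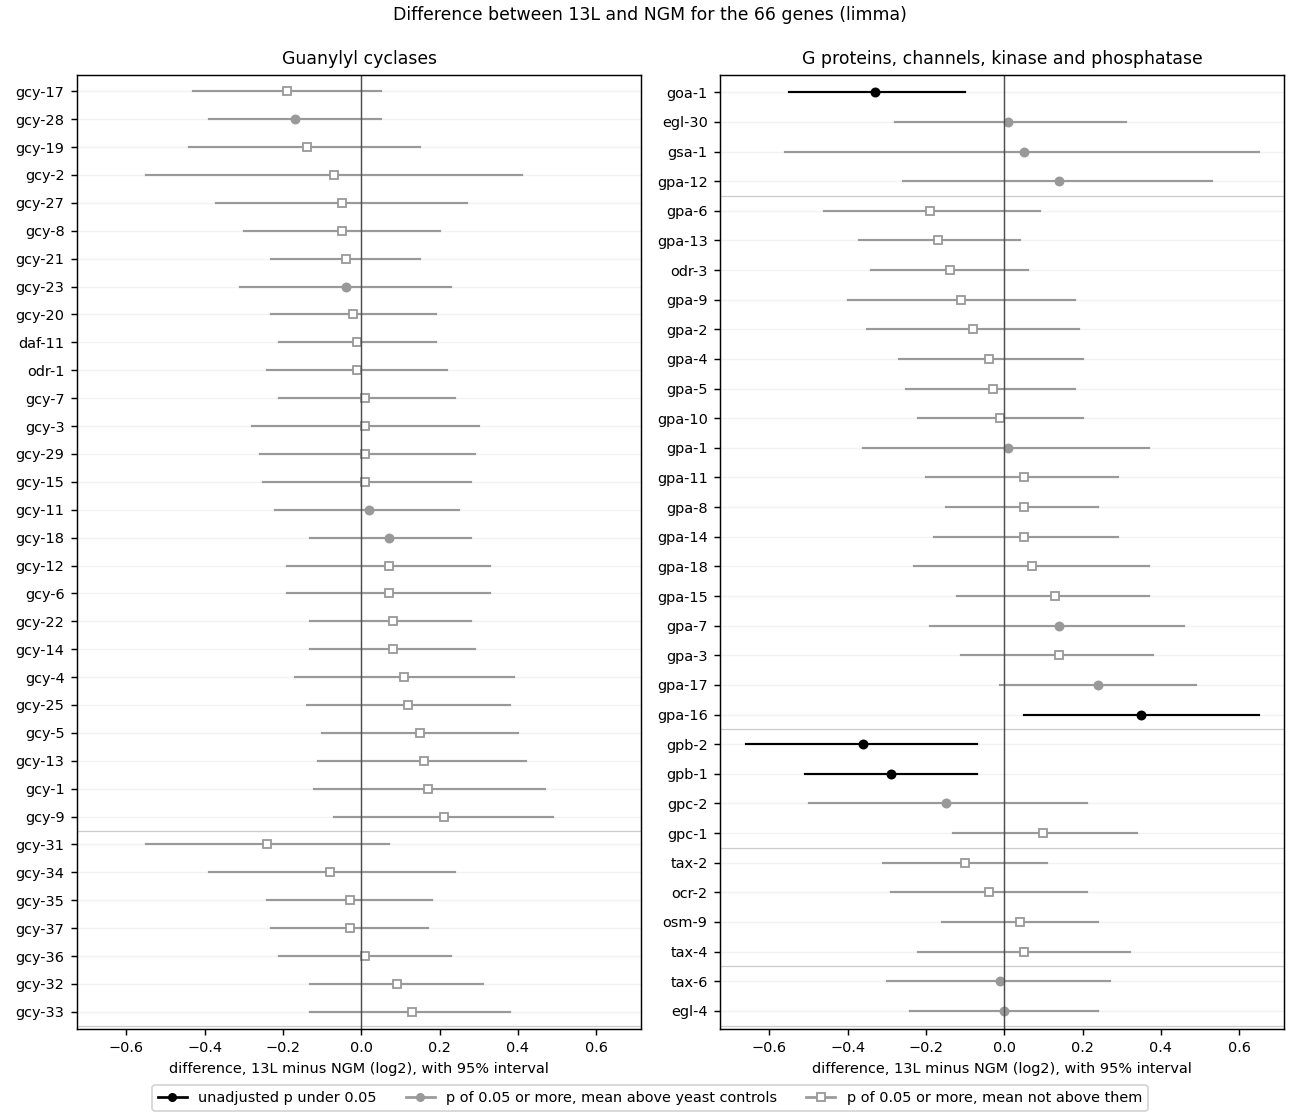
Difference between 13L and NGM on the log2 scale for each gene, with its 95% interval from limma, grouped by role. The intervals of goa-1, gpb-1, gpb-2 and gpa-16 (black) leave out 0 before adjustment, and all others (grey, with open squares for genes not above the yeast controls) include it.

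The conserved alpha subunits belong to classes shared with mammals, among them Go, Gq and Gs. GOA-1, the Go protein, restrains transmitter release and acts with GPA-16 in positioning the spindle of the early embryo. Its gene goa-1 had log2 values of 6.29, 6.25 and 6.19 in 13L (SL4, SL8 and SL12), against 6.63, 6.37, 6.62 and 6.68 on NGM (SL1, SL5, SL9 and SL69). The 13L arrays all lay below the NGM arrays, of which SL5 was the lowest. The mean was 6.25 in 13L (SD 0.05, n = 3) and 6.57 on NGM (SD 0.14, n = 4). This is a difference of -0.33 (standard error 0.10, 95% interval -0.55 to -0.10), or 0.798 of the NGM level (unadjusted p = 0.0103, adjusted p = 0.944 from limma). An exact permutation test of these 3 against 4 arrays gave a two-sided p of 0.0571, the smallest that 35 splits of the arrays allow. Every gene whose groups do not overlap gives this value, so it adds nothing to the separation. The dimmer probe sets of goa-1 differed by 0.00 and 0.20, so the lower value is that of 1 probe set only.

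EGL-30, the Gq protein, promotes transmitter release through phospholipase C, against GOA-1. Its gene egl-30 averaged 1.34 in 13L (SD 0.21, n = 3) and 1.33 on NGM (SD 0.17, n = 4), which differ by 0.01 with a 95% interval from -0.28 to 0.31. GSA-1, the Gs protein, activates adenylyl cyclase. The values of gsa-1 were 3.70, 3.51 and 4.09 in 13L, against 4.10, 3.63, 4.14 and 3.02 on NGM. They had the widest standard error of all members (0.27), with SL69 the lowest of the 7 arrays and SL9 the highest. Its difference of 0.05 (95% interval -0.56 to 0.65) became -0.19 without SL69 and -0.12 without SL12, so its direction rests on single arrays. For gpa-12 the difference was 0.14 (95% interval -0.26 to 0.53), and -0.02 without SL8.

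Of the 4 beta and gamma subunits, 2 were lower at an unadjusted p under 0.05, where 2.73% of all genes were. Among all genes above the yeast controls that share was 4.06%. With only 4 subunits, this count was not read as differing from those shares. GPB-1 is the beta subunit that partners most alpha subunits and is needed in the embryo. The values of gpb-1 were 6.20, 6.36 and 6.23 in 13L, against 6.69, 6.43, 6.56 and 6.54 on NGM. All 13L arrays lay below all NGM arrays, with SL8 in 13L and SL5 on NGM closest to each other. The difference was -0.29 (standard error 0.10, 95% interval -0.51 to -0.07, unadjusted p = 0.0142, adjusted p = 0.944 from limma). The dimmer probe sets of gpb-1 differed by 0.17 and 0.07, on the other side of 0.

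GPB-2 is the divergent beta subunit that works with the RGS proteins EGL-10 and EAT-16, which switch off GOA-1 and EGL-30. The values of gpb-2 were 1.07, 1.23 and 1.21 in 13L, against 1.49, 1.40, 1.38 and 1.86 on NGM. The groups did not overlap, and SL69 was the highest array. The difference was -0.36 (standard error 0.13, 95% interval -0.66 to -0.07, unadjusted p = 0.0204, adjusted p = 0.944 from limma), the largest in size among the 66 genes, and -0.26 without SL69. The only probe set of gpb-2 has the suffix of those that can match several transcripts. Of its partners, eat-16 differed by -0.26 (unadjusted p = 0.137) and egl-10, which was not above the yeast controls, by 0.16 (unadjusted p = 0.138). Of these, egl-10 was picked after its values were seen.

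GPC-2 is the broadly expressed gamma subunit, and GPC-1 the one known from sensory neurons, where it acts in adaptation to salt. The values of gpc-2 were 6.26, 6.21 and 6.69 in 13L, against 6.42, 6.31, 6.58 and 6.81 on NGM. Here SL12 was above all NGM arrays but SL69, and the groups overlapped. The difference was -0.15 (95% interval -0.50 to 0.21, unadjusted p = 0.374). A value as low as that of goa-1 or gpb-1 thus lay within its interval. With 1 array left out it ranged from -0.30 (without SL12) to -0.05 (without SL69), and was -0.08 without SL4 and -0.06 without SL8. The gene gpc-1 had 0.41, 0.27 and 0.10 in 13L, against 0.19, 0.04, 0.22 and 0.18 on NGM, all within the range of the yeast controls.

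**Figure D3:**
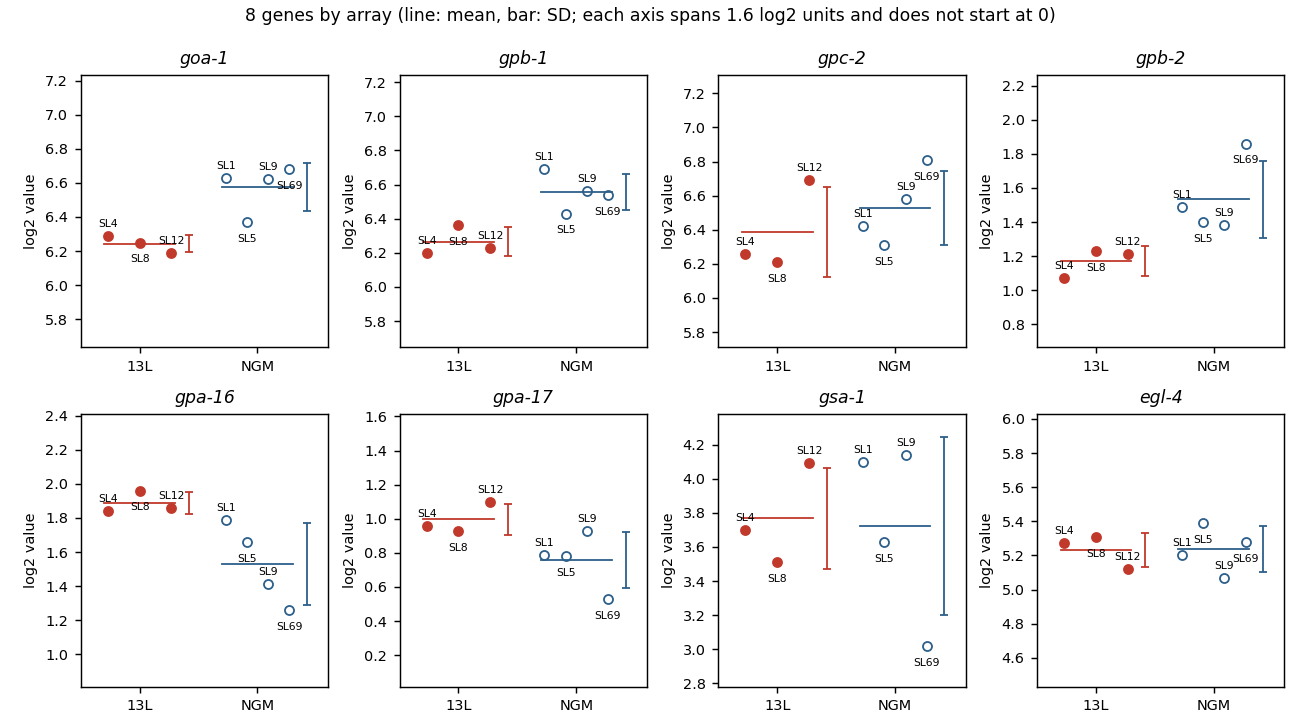
Log2 values by array for 8 genes, 13L (filled red) left of NGM (open blue), each point labelled with its array, with the mean as a line and the SD as a bar (n = 3 and n = 4). The groups do not overlap for goa-1, gpb-1 and gpb-2 (13L lower) and for gpa-16 and gpa-17 (13L higher), while those of gpc-2, gsa-1 and egl-4 do.

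The other alpha subunits are mostly particular to nematodes and to sensory neurons, and 4 of 18 had a mean above the yeast controls. One of them, gpa-16, is a close relative of goa-1 that acts beside it in the embryo. Its values were 1.84, 1.96 and 1.86 in 13L, against 1.79, 1.66, 1.41 and 1.26 on NGM. The 13L arrays were close together and all above the NGM arrays, which were spread over a wider range. The difference was 0.35 (standard error 0.13, 95% interval 0.05 to 0.65, unadjusted p = 0.026, adjusted p = 0.944 from limma), or 1.28 times the NGM level. It was thus on the other side from goa-1. For gpa-17 the values were 0.96, 0.93 and 1.10 in 13L, against 0.79, 0.78, 0.93 and 0.53 on NGM. The groups just failed to overlap, since SL8 in 13L and SL9 on NGM differed only beyond the second decimal, and the difference was 0.24 (unadjusted p = 0.0583).

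The remaining alpha subunits gave no separation. For gpa-1, above the yeast controls on every array, the difference was 0.01 (95% interval -0.36 to 0.37). For gpa-7 it was 0.14, with SL1 on NGM the highest array at 1.12. The olfactory subunit odr-3, which carries most of the odour response in the AWA and AWC neurons, had 0.23, 0.30 and 0.38 in 13L, against 0.43, 0.35, 0.49 and 0.52 on NGM. Its groups overlapped by SL5 only, but all values were those of the yeast controls, and the difference was -0.14 (unadjusted p = 0.146). The modulatory subunits gpa-2 and gpa-3, which act in dauer formation, differed by -0.08 and 0.14, and gpa-13 by -0.17. Single arrays carried the first pair, since gpa-3 differed by 0.02 without SL12, and gpa-2 by -0.01 without SL12 or without SL69 and by -0.15 without SL8 or without SL1. The lowest difference of this group was that of gpa-6, -0.19, and none of the 14 subunits that were not above the yeast controls had an unadjusted p under 0.05.

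Among the receptor-type guanylyl cyclases, 4 of 27 had a mean above the yeast controls. The difference was positive for 16 and negative for 11, within a range of -0.19 (gcy-17) to 0.21 (gcy-9), and none had an unadjusted p under 0.05 or separate groups. The gene gcy-28, known from many neurons and other cells, was the one far above background. Its values were 5.22, 5.30 and 5.34 in 13L, against 5.40, 5.54, 5.58 and 5.32 on NGM. The groups overlapped only because SL69 lay between the 13L arrays, and the difference was -0.17 (standard error 0.10, 95% interval -0.39 to 0.05, unadjusted p = 0.109). A second probe set of gcy-28 had 1.30, 1.55 and 1.46 in 13L, against 1.21, 1.23, 1.17 and 1.15 on NGM. On this one all 13L arrays were higher, by 0.24 on average (limma, unadjusted p = 0.0245, with an adjusted p = 0.944), so that the probe sets of this gene disagreed in direction. The third differed by 0.15.

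The cyclases of single sensory neurons lay at or near the yeast controls. Those of the thermosensory AFD neuron, gcy-8, gcy-18 and gcy-23, differed by -0.05, 0.07 and -0.04. Of these, gcy-18 had 0.88, 0.88 and 1.04 in 13L, against 0.88, 0.84, 0.95 and 0.78 on NGM, above the yeast controls on every array. The salt receptors gcy-1, gcy-4, gcy-5 and gcy-22 of the right ASE neuron differed by 0.08 to 0.17. Those of the left one, gcy-6, gcy-7, gcy-14 and gcy-20, differed by -0.02 to 0.08. All 8 were below the yeast mark, and in both sets the array medians of the groups overlapped. The cyclase gene gcy-3, also known from the right ASE neuron, was left out of these sets. It was not above the yeast controls and differed by 0.01. The cyclases odr-1 and daf-11, which act together in the AWC olfactory neuron, each differed by -0.01. The probe set of gcy-11 differed by 0.02. A probe set shared by gcy-15 and gcy-21, and therefore not used for either, had a mean of 0.81 and differed by 0.02. It lay above the yeast controls, while the probe sets of gcy-15 and gcy-21 alone did not.

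Soluble guanylyl cyclases bind oxygen through a heme. None of the 7 was above the yeast controls, and their values ran from 0.05 to 0.90. In the URX neurons, which respond to a rise in oxygen, gcy-35 and gcy-36 differed by -0.03 and 0.01. In the BAG neurons, which respond to a fall in oxygen and to carbon dioxide, the carbon dioxide receptor gcy-9 had 0.61, 0.62 and 0.99 in 13L, against 0.64, 0.43, 0.64 and 0.42 on NGM. Its difference of 0.21 came down to 0.08 without SL12, the one high array. The soluble cyclases of the same neuron, gcy-31 and gcy-33, had -0.24 and 0.13, the lowest and the highest difference of the 7. Genes known from the same neuron thus lay on both sides of 0, with unadjusted p-values of 0.11 or more.

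The channels and enzymes downstream of cGMP and calcium showed no separation. The subunits tax-2 and tax-4 of the cGMP-gated channel differed by -0.10 and 0.05, and the TRPV subunits osm-9 and ocr-2 by 0.04 and -0.04, all 4 with means below the yeast mark. The kinase egl-4, which is activated by cGMP and acts in odour adaptation, body size and egg laying, was far above background. Its values were 5.27, 5.31 and 5.12 in 13L, against 5.20, 5.39, 5.07 and 5.28 on NGM, with a difference of 0.00 (95% interval -0.24 to 0.24). Its dimmer probe set had 1.68, 1.93 and 1.50 in 13L, against 1.32, 1.52, 1.30 and 1.27 on NGM. SL12 in 13L lay just below SL5, and the probe set differed by 0.35 (limma, unadjusted p = 0.0184, with an adjusted p = 0.944). The calcineurin subunit tax-6 averaged 0.74 in 13L (SD 0.12, n = 3) and 0.75 on NGM (SD 0.20, n = 4).

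Of the 66 genes, 54 had 1 probe set and 12 had several. The brightest probe set had a lower difference than every other probe set of its gene for goa-1, gpb-1, gcy-28, egl-4, egl-30 and gpa-18, and a higher one for the other 6. For goa-1, gpb-1 and gcy-28 the dimmer probe sets had differences of 0 or more, against negative ones on the brightest. With the mean of all probe sets of a gene, goa-1 differed by -0.04 and gpb-1 by -0.02.

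**Figure D4:**
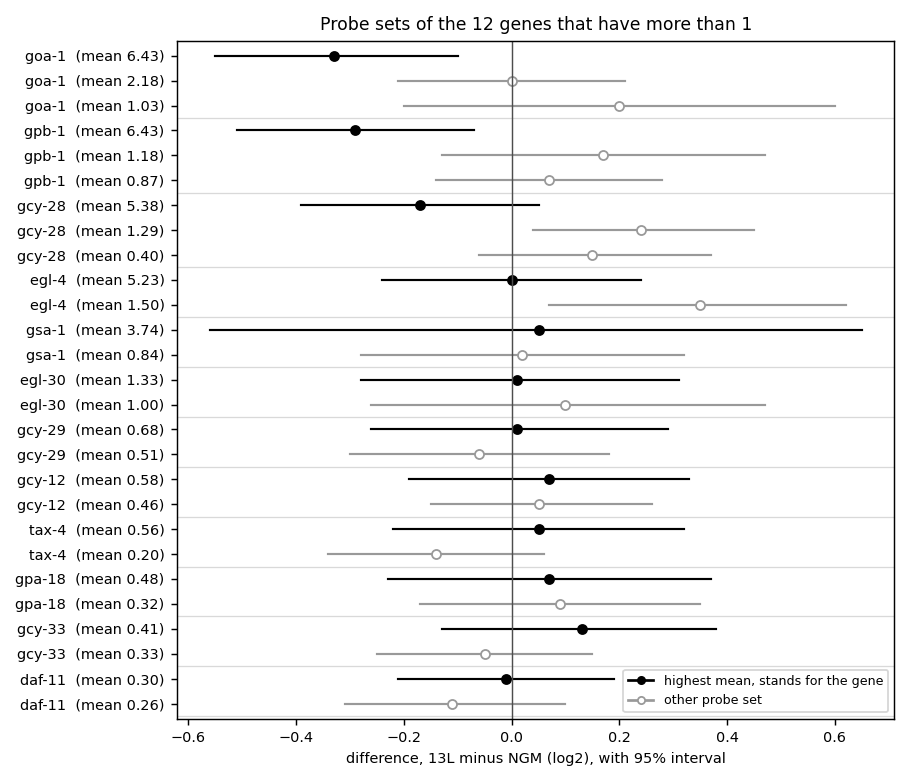
Difference between 13L and NGM (log2, with 95% interval) for every probe set of the 12 genes that have more than 1, with the mean level of the probe set beside its gene. Filled black points mark the probe set that stands for the gene, which lies left of the others for goa-1, gpb-1, gcy-28 and egl-4.

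Runs of title numbers place SL4 with SL1, SL8 with SL5 and SL12 with SL9, while SL69 has no partner. Within these pairs goa-1 differed by -0.33, -0.11 and -0.43, gpb-1 by -0.50, -0.07 and -0.32, and gpb-2 by -0.42, -0.18 and -0.17. For gpa-16 the pairs gave 0.05, 0.29 and 0.45, and for gpa-17 0.18, 0.15 and 0.17. Their direction was fixed beforehand, since genes whose groups do not overlap keep it in any pairing. With the pairs as a block, 5 members were lower at an unadjusted p under 0.05, the same 3 with gcy-2 and gpa-6, where 4.06% of all probe sets were lower. The 1 higher was again gpa-16, where 3.82% of all probe sets were higher (lowest adjusted p of a member 0.596 from limma). Without both SL1 and SL69, goa-1, gpb-1 and gpb-2 differed by -0.25, -0.23 and -0.22, with unadjusted p-values of 0.078, 0.0788 and 0.0775. The members lower at an unadjusted p under 0.05 were then gcy-17 and gcy-28, where 2.19% of all probe sets were lower.

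Markers of other cells are given beside these values, and none of them passed the adjusted test. A positive difference was found for 50.3% of all genes and for 46.8% of those above the yeast controls. Of 20 neuron markers 17 had a negative difference, with a median of -0.20. Their array medians were 2.19 to 2.32 in 13L, against 2.30 to 2.84 on NGM. Their summed linear level was 248 to 271 in 13L, against 279 to 293 on NGM. Such sums, here and below, weigh the brightest probe sets most, among these snb-1 (mean 6.78, difference -0.03). The neuron markers with the smallest p were unc-31 (-0.35), egl-21 (-0.25), sbt-1 (-0.26) and flp-1 (-0.23), and unc-31, rgef-1, unc-33 and aex-3 were not above the yeast controls. Of 16 oocyte markers 12 had a positive difference, with spn-4 higher by 0.43 and oma-1 by 0.27. The other 4 were perm-2 (-0.13), perm-4 (-0.09), pos-1 (-0.01) and puf-5 (-0.01). The array medians of the list were 7.96 to 8.17 in 13L, against 7.67 to 7.90 on NGM. The summed level of the list overlapped, with 4242 to 5286 in 13L, against 4177 to 4878 on NGM. Of 12 pharynx markers 11 had a negative difference, with a summed level of 77 to 139 in 13L, against 95 to 180 on NGM, and ceh-22 was not above the yeast controls. Of the 19 measured markers of ciliated sensory neurons, the cells that hold most of the 66 genes, 13 were not above the yeast controls, osm-3, osm-5, osm-6, che-13 and xbx-1 among them. The difference was positive for 7 (xbx-1 the largest, 0.28) and negative for 12 (klp-11 at -0.47 and daf-19 at -0.41 the largest in size). Their summed level was 44 to 49 in 13L, against 46 to 64 on NGM, where daf-19, the brightest of them, had 4.96 on SL69. The 12 measured embryo markers, of a stage in which goa-1, gpb-1 and gpa-16 act, had a median of -0.06, with a summed level of 32 to 44 in 13L, against 33 to 57 on NGM, and tbx-37, med-1 and tbx-35 were not above the yeast controls. The 16 sperm markers had a median of 0.05, with a summed level of 170 to 1249 in 13L, against 61 to 1127 on NGM, and spe-11, spe-12, spe-38, fer-1 and spe-10 were not above the yeast controls. The medians of the intestine, hypodermis and body wall muscle markers were -0.03, -0.06 and -0.06. The part of these cells in the values of goa-1, gpb-1, gpb-2 and gpa-16 was not tested.

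Further genes of the pathway were described from lists of known genes. Of 31 measured regulators and effectors of G proteins, 24 had a negative difference and the median was -0.07. Only rgs-7 had an unadjusted p under 0.05 (3.23% lower, against 2.73% of all genes). This RGS gene had 2.89, 2.88 and 2.92 in 13L, against 3.38, 3.04, 3.06 and 3.12 on NGM (difference -0.25). Next to it stood ric-8, which acts on GOA-1 and GPA-16 in the embryo (-0.19), rgs-11 (-0.28) and eat-16 (-0.26). The 13L arrays lay below the NGM arrays for rgs-7 and ric-8, 6.45% of the 31, against 2.85% of all genes. Of 24 partners in cGMP and calcium signalling 15 had a negative difference or one of 0. Only the cAMP phosphodiesterase gene pde-4 (-0.37) was lower at an unadjusted p under 0.05, which is 4.17%, against 2.73% of all genes. Next came the phosphodiesterase gene pde-2 (-0.30), the channel gene trpa-1 (-0.22) and the calcineurin inhibitor rcan-1 (-0.34). Among the 24, trpa-1 alone had groups that did not overlap (4.17% lower, against 2.85% of all genes). Of 18 transcription factors that set the fate of these neurons, 9 had a positive difference and none an unadjusted p under 0.05. Those with the smallest p were egl-13 (-0.37), ceh-23 (0.21), ttx-1 (-0.31) and ceh-37 (0.27). Among them lim-4 alone had groups that did not overlap (5.56% higher, against 2.94% of all genes). Of the 1274 chemoreceptor genes, 760 had a positive difference (59.7%, against 50.3% of all genes), and 1215 were not above the yeast controls. The groups did not overlap for 58 (4.55%) on the higher side and 24 (1.88%) on the lower, against 2.94% and 2.85% of all genes. The median of the chemoreceptor genes was 0.02. Of them, 21 (1.65%) passed the unadjusted threshold on the higher side and 6 (0.471%) on the lower, against 1.99% and 2.73% of all genes. No gene of these lists passed the adjusted test.

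**Figure D5:**
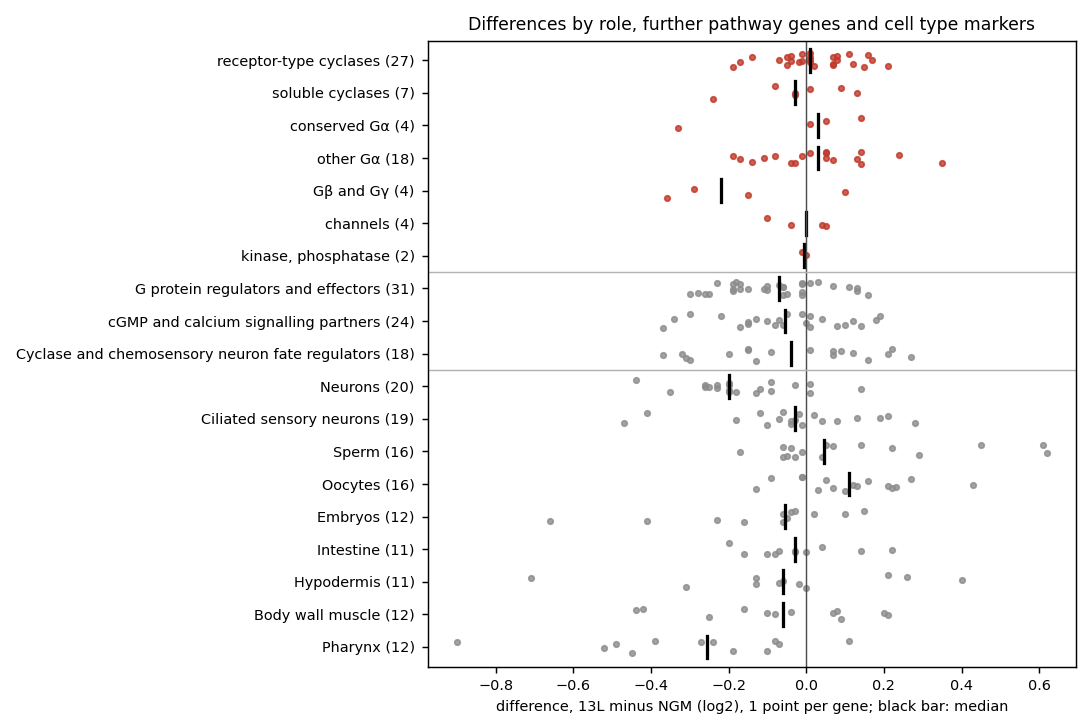
Difference between 13L and NGM (log2) for each gene of the 7 roles (red) and of the further pathway and marker lists (grey), with the number of genes in brackets and the median as a black bar. The medians of the beta and gamma subunits (-0.22), the neuron markers (-0.20) and the pharynx markers (-0.26) lie lowest, and that of the oocyte markers (0.11) highest.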

How the data were processed

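Total RNA of whole worms was measured on 7 Affymetrix C. elegans Genome Arrays, 3 of 13L and 4 of NGM. The deposited table holds 1 log2 value per probe set and array, which the authors made by RMA background correction followed by quantile normalization. RMA and limma are the tools in the submitters' processing notes, with no version in the sources used here. Scanner files were not used here, and the offset of the log2 scale is not stated. Quantile normalization gives all arrays nearly the same distribution, so a shift shared by most genes would not be seen.

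Of 22625 probe sets, 77 Affymetrix controls were left out and 22548 tested. Genes were named through the platform annotation. A probe set annotated to several genes (887) or to none (895) named no gene, and all 66 genes described were also found by the same symbol in a gene table of the reference assembly. The arrays were compared with limma 3.58.1 in R 4.3.3 (two-sided moderated test, no covariate). The p-values were adjusted after Benjamini-Hochberg over the whole table, and the threshold was 0.05. No test was run on a list of genes. Precision is limited by how few arrays there are, and p-values measure only the spread between these arrays. The scripts were tested on simulated data made with known differences.

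Genes were named with their values where they had an unadjusted p under 0.05 or groups that did not overlap, where they had the highest or lowest difference of their role, or where they belonged to a fixed set of well-known members of each role. The members, lists and naming rule were chosen with earlier results of these data known. Other members were named to show the range of a set or, like the further probe sets, once their values had been seen.

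Results were recomputed with each array left out, SL1 and SL69 or SL1 and SL4 left out together, runs of title numbers as a block, trend, robust and array weight settings of limma, median centring, cyclic loess, 2 filters on dim probe sets, no probe sets of the suffixes _s_at and _x_at, and the average over all probe sets of a gene. The labels give no shared replicate numbers. The deviations of the arrays paired by runs of title numbers correlated at 0.529 (SL4 with SL1), 0.156 (SL8 with SL5) and 0.537 (SL12 with SL9) over probe sets, and no source calls these runs a batch. In the blocked fit SL69, alone in its block, added nothing to the difference.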

Additional observations from a re-analysis of the deposited data

Results flagged for a closer look

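On NGM, 5 of the 66 genes had 1 array far from the other 3 by Dixon's test, where chance gives about 1 in 20 groups. The array was the lowest for gcy-23 (SL5, 0.68) and gcy-17 (SL1, 0.30), and the highest for gcy-20 (SL9, 0.54), gcy-21 (SL1, 0.25) and gpa-7 (SL1, 1.12). Of these, gcy-17, gcy-20 and gcy-21 had means no higher than the brightest yeast control.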

How the results depend on the processing

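No named gene passed the adjusted test under any of the 19 alternatives. One of these, without SL1 and SL4, was chosen after seeing the data, since these arrays were lowest in sperm genes. Of 31 named genes 19 did not change direction, among them goa-1 (-0.39 to -0.04), gpb-1 (-0.34 to -0.02), gpb-2 (-0.41 to -0.22), gpa-16 (0.27 to 0.46) and gpa-17 (0.14 to 0.30), while egl-4, at 0.00, had no direction to keep (-0.05 to 0.17). Much of this was fixed beforehand. The trend and robust settings and the filters on dim probe sets leave a difference as it is. For goa-1, gpb-1, gpb-2, gpa-16 and gpa-17, whose groups do not overlap, leaving arrays out or pairing them could not reverse the direction. The values of goa-1 and gpb-1 nearest to 0, -0.04 and -0.02, were those averaged over all probe sets of the gene. The count of members higher at an unadjusted p under 0.05, 1 as reported, was 2 without SL1 and SL69 and 3 without SL1 and SL4. It was 0 with limma's trend and 0 to 2 with 1 array left out. The shares of all probe sets on the higher side were, in that order, 2.3%, 2.24%, 2.46% and 1.97% to 2.79%. The count lower, 3 as reported, was 5 in the paired fit, with a replicate block by runs of title numbers, and 1 with the mean of probe sets, which averages in the dimmer ones. With 1 array left out it was 1 to 4. On the lower side the shares over all features were, in that order, 4.06% of probe sets, 2.24% of genes, and 1.76% to 3.12% of probe sets. Of the members left by the filters, fewer by construction, 6 of 11 among probe sets brighter than the median and 10 of 17 above the yeast controls had a positive difference, against 36 of 66. The other 12 genes changed direction at least once, all with reported differences of at most 0.14 in size, and the cause was not tested. With 1 array left out they ranged from -0.05 to 0.06 (odr-1), -0.04 to 0.04 (daf-11), -0.14 to 0.05 (gcy-8), -0.14 to 0.08 (gcy-23), -0.07 to 0.03 (gcy-35), -0.04 to 0.06 (gcy-36), -0.11 to 0.09 (egl-30), -0.19 to 0.19 (gsa-1), -0.02 to 0.25 (gpa-12), -0.01 to 0.13 (tax-4), -0.11 to 0.05 (ocr-2) and -0.08 to 0.07 (tax-6). Without SL1 and SL69, daf-11 and gcy-23 were at 0.01, gcy-36 at -0.02, gsa-1 at -0.12, ocr-2 at 0.03 and tax-6 at 0.15. Without SL1 and SL4, gcy-8 was at 0.02, gcy-35 at 0.05 and tax-6 at 0.14. With the block, daf-11 was at 0.04, gsa-1 at -0.19 and tax-6 at 0.02, and with array weights gsa-1 was at -0.06 and tax-6 at 0.02. For tax-4 the value was -0.14 without probe sets that can match several transcripts and -0.04 with the mean of probe sets. The widest 95% interval of the 49 genes not above the yeast controls was that of gcy-2, -0.55 to 0.41, and their values may hold little signal of the gene itself.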
